A study of Mus musculus with 6 samples.

Results

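Transcripts of 8 hormone, cytokine, growth factor and adrenergic receptors were followed in mouse liver by bulk RNA sequencing. They were Prlr (prolactin receptor), Esr1 (estrogen receptor alpha), Lepr (leptin receptor), Gcgr (glucagon receptor), Egfr (epidermal growth factor receptor), Lifr (leukemia inhibitory factor receptor), Adrb3 (beta-3 adrenergic receptor) and Adra1b (alpha-1B adrenergic receptor). All 8 were found by exact symbol among the 35976 genes of the count table, and all 8 passed the filter on low counts. The set was chosen by gene symbol with values of the same comparison already known, so the members' own differences are given as a description and support nothing beyond themselves. Livers of male mice gave 6 libraries, of which 3 carry the genotype label IRE1fl and 3 the label IRE1PKO, numbered 01 to 03 in each. All the mice received HFD, taken to mean a high-fat diet, and livers were collected 4 hours into feeding that followed 16 hours of fasting. IRE1, encoded by Ern1, is a stress sensor of the endoplasmic reticulum. What PKO stands for, the Cre line and the deleted tissue are not stated in the labels, and the series title concerns signals between pituitary and liver.

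Hepatocytes read the endocrine state through receptors of several kinds. Glucagon and beta-adrenergic receptors couple to Gs and cyclic AMP, which drives glucose release, and alpha-1 adrenergic receptors couple to Gq, calcium and glycogen breakdown. The prolactin, leptin and leukemia inhibitory factor receptors signal through Janus kinases and STAT factors. The epidermal growth factor receptor is a tyrosine kinase of the ErbB family with a large role in liver regeneration, and the estrogen receptor is a ligand-activated transcription factor. In rodents the hepatic prolactin receptor is more abundant in females than in males.

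Total counts ran from 35776219 to 39277435 per library. Levels are given as CPM, the counts of a gene relative to the scaled total of its library. Ern1 itself had 61.2, 49.3 and 60.8 CPM in IRE1fl and 45.7, 36.6 and 44.2 CPM in IRE1PKO, lower in all 3 (log2 fold change -0.44, SE 0.11, edgeR adjusted p = 0.0357). Whether this checks the labels depends on where the deletion lies. The hepatocyte markers summed to between 112607 and 133098 CPM in IRE1fl and between 102938 and 126808 in IRE1PKO, and none of the 12 was at 0. All values are from whole liver, in which fewer cells of a type and less RNA per cell cannot be told apart. The labels do not say that libraries came from separate animals, so tests measure the spread between these libraries.

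Adrb3 was the only receptor of the 8 past the threshold, and it fell. Genes passed at 0.05 after Benjamini-Hochberg adjustment of edgeR quasi-likelihood p-values over 14954 tested genes, of which 9.54% passed in either direction and 3.86% as lower in IRE1PKO. Egfr, Lifr and Esr1 lay below every IRE1fl library in all 3 IRE1PKO libraries, with mean levels 3.89, 2.31 and 1.65 times lower, but the spread within groups was wide and none of these passed. Gcgr lay 1.16 times lower, Lepr 1.42 times higher, and Prlr and Adra1b overlapped between groups. In all, 5 members did not overlap with IRE1PKO below, 1 did not overlap with IRE1PKO above, and 2 overlapped. Among all tested genes the share without overlap was 31.0%, split into 15.0% below and 16.0% above. The median log2 fold change (IRE1PKO over IRE1fl) of the members was -0.47, beside -0.0014 over all tested genes.

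**Figure D1:**
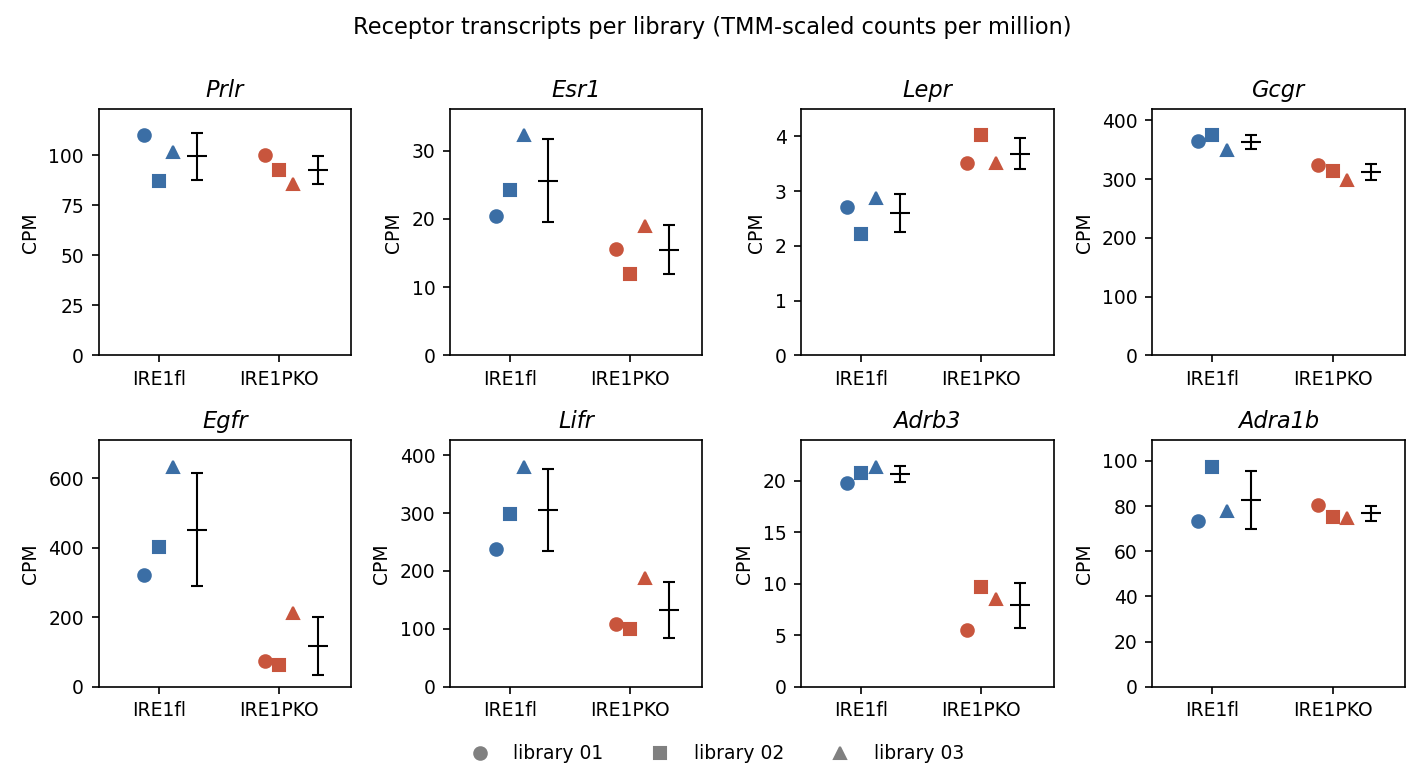
CPM of each receptor (vertical axis, from 0) in the 3 IRE1fl and 3 IRE1PKO libraries, with symbols for the library number and the mean ± SD beside each group. Adrb3 separates the groups with a wide gap, Egfr, Lifr and Esr1 separate them with wide spread within groups, and Prlr and Adra1b overlap.

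**Figure D2:**
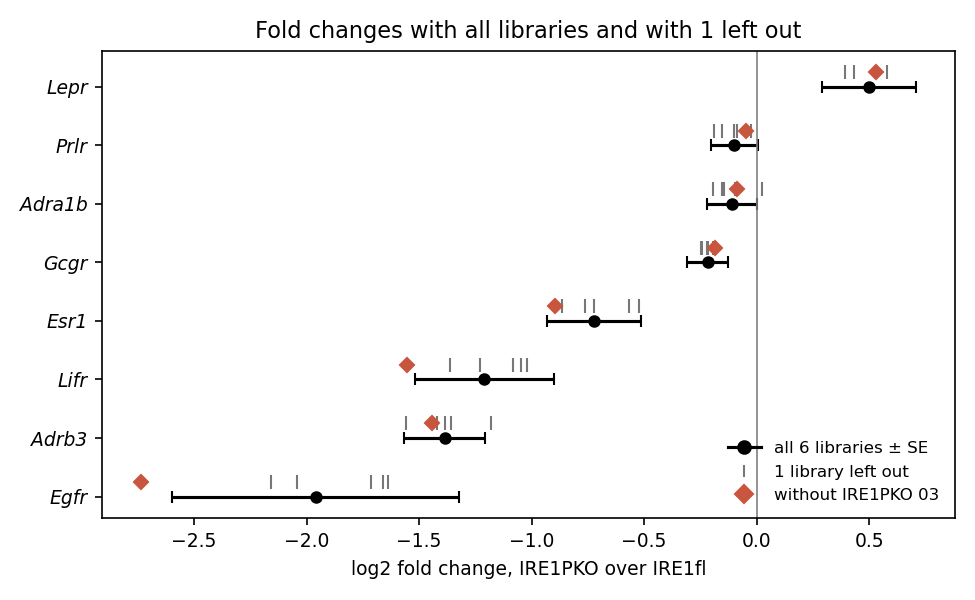
Log2 fold change of each receptor, IRE1PKO over IRE1fl, with all 6 libraries (black, ± SE) and with 1 library left out (ticks; diamond without IRE1PKO 03). Egfr moves farthest when a library is left out, to -2.74 without IRE1PKO 03, and Adra1b crosses 0.

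Of the adrenergic receptors tested, Adrb3 fell, Adra2b rose with a call that did not hold in most alternatives that left out a library, and Adra1b, Adra1a and Adrb1 did not pass. Adrb3 (chromosome 8, 27225776 to 27230845, minus strand) encodes the beta-3 receptor, best known from fat cells, where it drives lipolysis. It had 19.8, 20.7 and 21.3 CPM in IRE1fl and 5.49, 9.66 and 8.51 CPM in IRE1PKO, that is 20.6 ± 0.789 against 7.89 ± 2.15 (SD, n = 3 each). The IRE1fl libraries lay close together and every IRE1PKO library was far below them. The log2 fold change was -1.39 (SE 0.18), with a range of -1.56 to -1.18 when single libraries were dropped, past the threshold each time. Adra1b (chromosome 11, 43774605 to 43901250), the main alpha-1 receptor of hepatocytes, had 73.2, 97.4 and 77.9 CPM in IRE1fl and 80.7, 75.2 and 74.6 CPM in IRE1PKO. Most libraries lay together and IRE1fl 02 stood above the rest. The groups overlapped, and the log2 fold change of -0.11 had a 95% interval of -0.35 to 0.13. Without IRE1fl 02, its highest library, the value was 0.02.

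Of 6 other adrenergic receptors listed, 3 passed the filter, 1 of these rose and none fell (0 fell at an unadjusted p under 0.05, and 0 in DESeq2 or limma-voom). Adra2b, a Gi-coupled alpha-2 receptor, had 4.15, 4.62 and 4.47 CPM against 6.85, 8.82 and 5.74 CPM, a log2 fold change of 0.69 (SE 0.19, edgeR adjusted p = 0.0430). The Adra2b call was lost without any library other than IRE1PKO 03 (edgeR adjusted p up to 0.174) and in limma-voom (adjusted p = 0.0673). Adra1a had 8.09 to 12.9 CPM in IRE1fl and 10.8 to 15.2 in IRE1PKO, and Adrb1 had 0.766 to 1.48 against 0.924 to 1.74, both with overlapping groups. Adra1d, Adra2a and Adra2c did not pass the filter, and each lacked counts in at least 1 library.

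Per kilobase of exon (RPKM), Adrb3 had 6.10 ± 0.234 RPKM in IRE1fl beside 0.342 ± 0.107 for Adrb1, the beta-1 receptor. In IRE1PKO they stood at 2.34 ± 0.637 and 0.412 ± 0.124 RPKM, so Adrb3 remained the higher of the pair in every library. The alpha receptors summed to 26.9 ± 4.18 and 25.9 ± 1.07 RPKM, of which Adra1b gave 91.0% to 91.4% and 84.9% to 89.0%. An antisense gene, Gm45470, overlaps exons of Adrb3 in GENCODE. The count table holds no gene of that symbol. Whether counting used strand is not stated, so reads of that pair cannot be told apart.

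**Figure D3:**
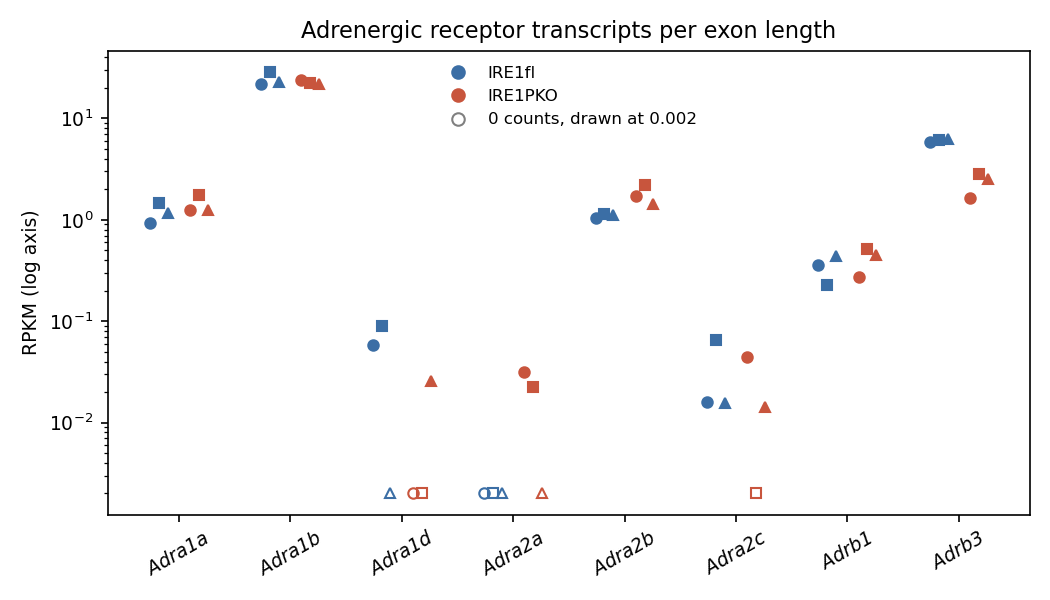
RPKM (log axis) of 8 adrenergic receptors, 1 point per library, circles, squares and triangles for libraries 01, 02 and 03, and open symbols for 0 counts. Adra1b is highest in every library, Adrb3 is second in all IRE1fl libraries, and Adra2b lies higher in IRE1PKO.

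Fat cells were looked at beside Adrb3, since adipose tissue expresses it. Lep was at 0 in every library, and Adipoq, Plin1 and Retn had at most 0.369, 0.227 and 0.163 CPM in any. The 14 listed adipocyte markers summed to between 2200.1 and 2757 CPM in IRE1fl and between 2863 and 3387 in IRE1PKO, mostly Car3, which did not pass, and 4 of the 9 tested rose and none fell. Those were Cidec, Pparg, Fabp4 and Npr3. Steatotic hepatocytes also express Cidec and Pparg. Adrb3 was lower in the group where these 4 markers were higher. Adipoq, Plin1, Slc2a4 and Tmem26 had lower means in IRE1PKO, with overlapping groups. Cfd, Retn, Car3, Lipe and Ucp1 had higher means there, and of these only Cfd did not overlap. The part of fat cells in the Adrb3 result was not tested.

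Among 23 genes of adrenergic coupling, 4 rose, 1 fell and 18 did not pass. Rgs16, which shortens signalling by Gi and Gq proteins, rose from 212 ± 27.4 to 412 ± 73.9 CPM (log2 fold change 0.96, SE 0.14, edgeR adjusted p = 0.0024). Itpr2, an inositol trisphosphate receptor, had 43.9, 42.4 and 45.1 CPM in IRE1fl and 30.2, 32.2 and 34.0 CPM in IRE1PKO. Its log2 value fell by 0.45 (SE 0.09, edgeR adjusted p = 0.00856). Its relative Itpr1, chosen after its values were seen, was more abundant, at 98.9, 95.5 and 96.2 CPM against 76.3, 78.8 and 87.3 CPM. Itpr1 did not pass (log2 fold change -0.26, edgeR adjusted p = 0.0779). Phka2, a regulatory subunit of phosphorylase kinase, rose by 0.41 (SE 0.09, edgeR adjusted p = 0.0125), and Maoa, which degrades catecholamines, by 1.01 (SE 0.23, edgeR adjusted p = 0.0223). Akap12, a scaffold for protein kinase A chosen after its values were seen, rose by 0.78 (SE 0.21, edgeR adjusted p = 0.0388). The Phka2 call was lost without IRE1fl 02 (adjusted p = 0.058 in edgeR). Maoa held only without IRE1fl 01 or IRE1PKO 03, and otherwise reached an edgeR adjusted p of up to 0.0876. The median log2 fold change of the 23 was 0.14.

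Egfr showed the lowest mean relative to IRE1fl of the 8. Egfr (chromosome 11, 16752203 to 16913907) had 323, 402 and 634 CPM in IRE1fl and 73.1, 62.9 and 213 CPM in IRE1PKO, or 453 ± 162 against 116 ± 84.0 (SD, n = 3 each). Even the highest IRE1PKO library, 03, lay below the lowest IRE1fl library, 01. Its coefficient of variation was 35.7% in IRE1fl and 72.2% in IRE1PKO, where the median tested gene had 11.8% and 12.0%. The log2 fold change was -1.96 (SE 0.64) and did not pass in edgeR. Without IRE1PKO 03 it was -2.74 (SE 0.35) and past the threshold, and DESeq2 and limma-voom placed Egfr past it with all 6 libraries.

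None of the other ErbB receptors passed. Erbb3, the kinase-impaired partner receptor, had 119 to 161 CPM in IRE1fl and 110 to 144 CPM in IRE1PKO, with a log2 fold change of -0.10 (SE 0.13). Erbb2 and Erbb4 had at most 2.42 and 8.11 CPM and their groups overlapped. Per exon length, Egfr had 40.0 ± 14.3 RPKM and Erbb3 23.1 ± 3.54 RPKM in IRE1fl, and 10.3 ± 7.42 and 21.6 ± 2.99 RPKM in IRE1PKO. Egfr was therefore 54.7% to 73.0% of ErbB receptor RPKM in the IRE1fl libraries and 21.9%, 18.1% and 49.8% in IRE1PKO 01, 02 and 03. Erbb3 exceeded Egfr in IRE1PKO 01 and 02, and not in the other 4 libraries.

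Of 28 tested ErbB ligands, relatives and regulators, 1 rose, 1 fell and 26 did not pass, with a median log2 fold change of 0.010. Errfi1, an inhibitor that binds the kinase domain of the receptor, had 881, 870 and 873 CPM in IRE1fl and 400, 567 and 616 CPM in IRE1PKO. Its log2 value fell by 0.73 (SE 0.15, edgeR adjusted p = 0.011). Nrg1, a ligand of Erbb3 and Erbb4, rose from 0.720, 0.397 and 0.269 CPM to 3.80, 2.14 and 2.27 CPM (log2 fold change 2.56, SE 0.41, edgeR adjusted p = 0.00309). Of the ligands of Egfr itself, Tgfa had 21.0 to 23.3 CPM in IRE1fl and 24.2 to 26.8 in IRE1PKO and did not pass (edgeR adjusted p = 0.229). Egf, Hbegf and Btc had overlapping groups and at most 1.16, 1.08 and 3.79 CPM.

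Lifr followed the same order of libraries as Egfr. Lifr (chromosome 15, 7090610 to 7197489) had 238, 298 and 380 CPM in IRE1fl and 108, 100.1 and 188 CPM in IRE1PKO, or 305 ± 71.4 against 132 ± 48.4. The groups did not overlap, with IRE1PKO 03 again nearest to IRE1fl. The log2 fold change was -1.21 (SE 0.31) and did not pass in edgeR with all 6 libraries, whereas DESeq2 and limma-voom placed Lifr past the threshold. Without IRE1PKO 03 it was -1.55 (SE 0.19) and passed in edgeR. Il6st, the gp130 subunit with which Lifr pairs, had 140, 156 and 164 CPM in IRE1fl and 137, 141 and 152 CPM in IRE1PKO, a log2 fold change of -0.10 (SE 0.09). Per exon length, Lifr had 28.3 ± 6.63 RPKM and Il6st 13.8 ± 1.08 RPKM in IRE1fl, and 12.2 ± 4.49 and 12.9 ± 0.723 RPKM in IRE1PKO. Lifr exceeded Il6st in every IRE1fl library and in IRE1PKO 03, and lay below it in IRE1PKO 01 and 02.

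None of 13 tested genes of the leukemia inhibitory factor and interleukin 6 family passed in edgeR, and their median log2 fold change was 0.31. At an unadjusted p under 0.05, 4 were higher and 2 lower, DESeq2 called 3 higher and 2 lower, and limma-voom 1 higher and 0 lower. Il6ra, the interleukin 6 receptor, had 32.7, 73.0 and 59.1 CPM in IRE1fl and 27.1, 45.3 and 29.8 CPM in IRE1PKO, with overlapping groups. Osmr, the oncostatin M receptor, had 3.74 to 4.68 against 5.16 to 5.37 CPM. Among acute phase targets of the pathway, Hp (haptoglobin) had 2713 to 3369 CPM in IRE1fl and 3602 to 3703 in IRE1PKO (log2 fold change 0.31, SE 0.12, edgeR adjusted p = 0.128). Hp did pass in DESeq2 and when libraries were scaled by their totals alone. The fibrinogen genes Fgb and Fgg, chosen after their values were seen, lay in the opposite direction, with log2 fold changes of -0.44 and -0.41 that did not pass.

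**Figure D4:**
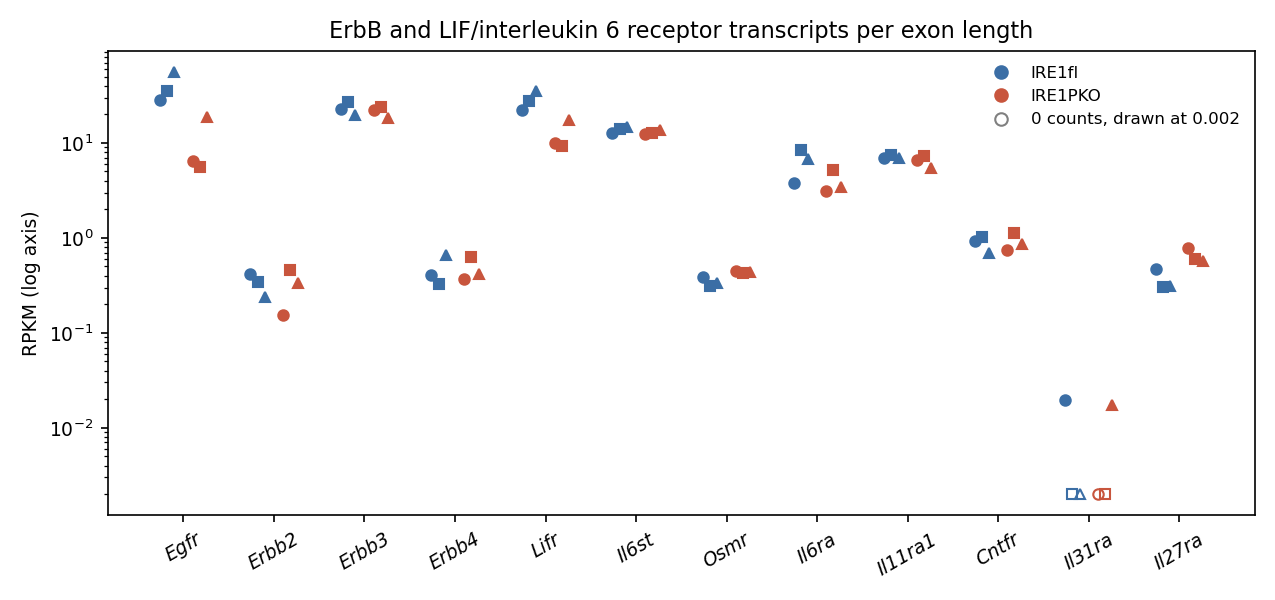
RPKM (log axis) of the ErbB receptors and of the receptors of the leukemia inhibitory factor and interleukin 6 family, 1 point per library, open symbols for 0 counts. Egfr and Lifr separate by genotype, while their partners Erbb3 and Il6st overlap.

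Esr1 was lower in all IRE1PKO libraries by a smaller margin. Esr1 (chromosome 10, 4611989 to 5005633) had 20.4, 24.3 and 32.2 CPM in IRE1fl and 15.6, 12.0 and 19.0 CPM in IRE1PKO, or 25.6 ± 6.03 against 15.5 ± 3.54. The nearest pair, IRE1fl 01 and IRE1PKO 03, stood at 20.4 and 19.0 CPM. The log2 fold change was -0.72 (SE 0.21) and did not pass in edgeR or limma-voom with all 6 libraries. It passed in DESeq2 with all 6, and in edgeR without IRE1fl 01 (-0.87) or without IRE1PKO 03 (-0.90). The other estrogen receptors were at or near 0: Esr2 had 0 counts in IRE1PKO and at most 0.0567 CPM in IRE1fl, and Gper1 had at most 0.296 CPM.

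Of 17 tested relatives, cofactors and steroid enzymes around Esr1, 3 rose, 2 fell and 12 did not pass, with a median log2 fold change of 0.070. Pgrmc2, a membrane heme and progesterone binding protein, rose from 70.0 ± 7.59 to 127 ± 13.8 CPM (log2 fold change 0.86, SE 0.11, edgeR adjusted p = 0.00119). Hsd17b12, an enzyme of fatty acid elongation that also reduces estrone, rose by 0.69 (SE 0.11, edgeR adjusted p = 0.00292). Hsd17b2, which oxidizes estradiol, fell by 0.70 (SE 0.11, edgeR adjusted p = 0.00352). Cyp7b1, a hydroxylase of oxysterols and steroids, had 137, 276 and 329 CPM in IRE1fl and 55.0, 48.6 and 56.7 CPM in IRE1PKO (log2 fold change -2.21, SE 0.35, edgeR adjusted p = 0.0221). The Cyp7b1 call was lost without IRE1fl 02 or any single IRE1PKO library (edgeR adjusted p up to 0.0995). Esrrg, an orphan relative of the estrogen receptors chosen after its values were seen, rose by 0.86 (SE 0.21, edgeR adjusted p = 0.0246). The coactivators Ncoa1, Ncoa2 and Ncoa3 did not pass.

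Egfr, Lifr and Esr1 shared the order of libraries within each genotype. In all 3 genes the order from low to high was 01, 02, 03 in IRE1fl and 02, 01, 03 in IRE1PKO. As a percentage of the IRE1fl mean, Egfr stood at 16.1, 13.9 and 47.1% in IRE1PKO 01, 02 and 03, Lifr at 35.4, 32.8 and 61.5%, and Esr1 at 60.7, 46.7 and 74.3%. Adrb3 had another order, at 26.7, 46.9 and 41.3%. Over the 6 libraries log2 CPM of Egfr and Lifr correlated with Pearson's r of 0.997, Esr1 and Lifr with 0.965, and Esr1 and Egfr with 0.957. After the group means were subtracted these values were 0.989, 0.913 and 0.881, beside 0.225 for Egfr and Adrb3. The highest of the other member pairs was 0.621 for Prlr and Lepr. Large negative values also occurred, such as -0.820 for Lepr and Adra1b and -0.810 for Gcgr and Egfr. The points share libraries and depth and fall into 2 genotypes, so the correlations are a description. Among 8080 other genes with a mean of 10 CPM or more, the gene most like Egfr over the 6 libraries was Lifr, and the reverse also held. The gene most like Adrb3 was Tcp1 (r = 0.998), like Esr1 Eral1 (0.995), like Gcgr Rxra (0.993), like Lepr Myo10 (0.999), like Prlr Tab2 (0.99) and like Adra1b Hectd3 (0.99). With 6 libraries many genes reach such values: 124 had an r above 0.95 with Egfr and 159 with Adrb3.

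**Figure D5:**
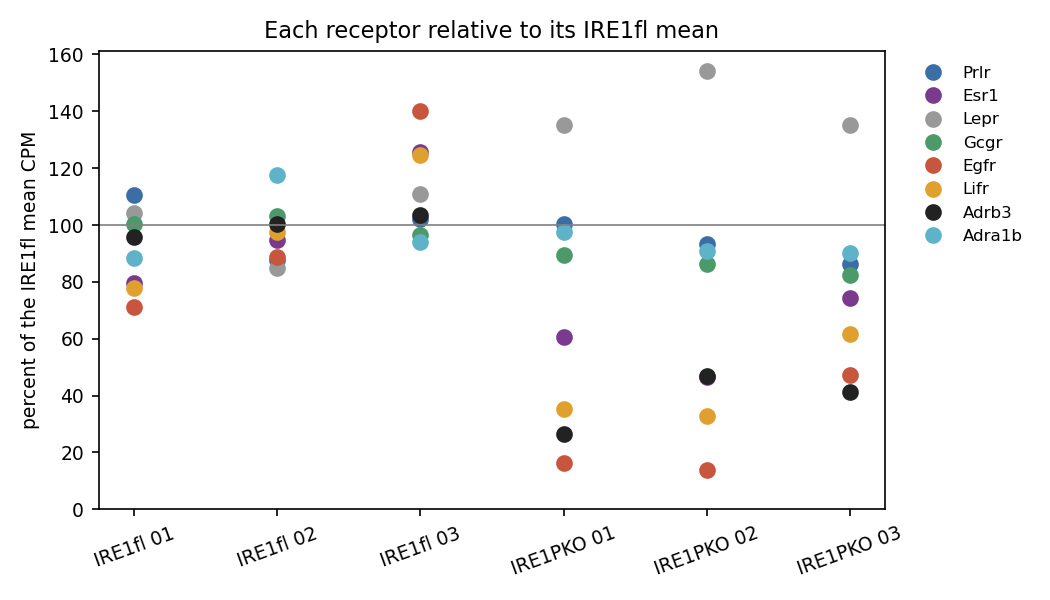
Level of each receptor in each library as a percentage of its IRE1fl mean CPM (line at 100). Egfr, Lifr and Esr1 are highest in IRE1fl 03 and IRE1PKO 03 within their genotypes, Adrb3 is low in all IRE1PKO libraries, and Lepr lies between 135% and 154% there.

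The 250 bases before 1 RefSeq start each of Egfr, Lifr and Esr1 (GRCm38.p6, plus strand, 5′ to 3′) are shown. Capitals mark matches to TTCNNNGAA, the STAT consensus, or to GGGCGG, the SP1 core, on either strand. The Egfr window is chr11:16751953-16752202, the first Lifr window chr15:7129322-7129571 and the second Esr1 window chr10:4709908-4710157.
Egfr: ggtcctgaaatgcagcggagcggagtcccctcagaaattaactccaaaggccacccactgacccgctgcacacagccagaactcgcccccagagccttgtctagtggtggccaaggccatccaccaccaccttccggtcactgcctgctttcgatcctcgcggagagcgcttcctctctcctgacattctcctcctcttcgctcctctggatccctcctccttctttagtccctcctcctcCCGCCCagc
Lifr: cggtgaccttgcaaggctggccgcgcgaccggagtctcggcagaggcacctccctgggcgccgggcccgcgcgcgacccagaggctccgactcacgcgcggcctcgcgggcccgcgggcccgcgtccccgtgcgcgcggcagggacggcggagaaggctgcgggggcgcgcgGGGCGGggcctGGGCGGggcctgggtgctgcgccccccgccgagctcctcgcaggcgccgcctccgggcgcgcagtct
Esr1: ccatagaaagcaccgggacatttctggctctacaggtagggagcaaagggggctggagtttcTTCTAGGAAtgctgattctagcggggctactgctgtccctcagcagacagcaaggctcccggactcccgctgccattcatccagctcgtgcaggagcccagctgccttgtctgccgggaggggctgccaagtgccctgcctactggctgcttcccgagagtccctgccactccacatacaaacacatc
The windows shown are those with a match, and the second Lifr window (50.8% G and C, 3 CG pairs) and the first Esr1 window (47.6%, 4 CG pairs) held none of the motifs searched. The Esr1 window shown and both Lifr windows lie inside the gene coordinates given above, before internal starts. The Egfr window and the first Esr1 window end where those coordinates begin. Which start is used in liver was not tested. The Lifr window shown was 82.4% G and C with 43 CG pairs, and the Egfr and Esr1 windows shown were 60.8% and 59.6% with 11 and 7. The median over all 32851 RefSeq windows of this length was 52.4% with 6. An SP1 match occurred at 1 place upstream of Egfr and at 2 places upstream of Lifr, where 32.7% of all windows hold at least 1. The Esr1 window held the STAT match TTCTAGGAA at -188 to -180 from the start, and 7.02% of all windows hold a match to TTCNNNGAA. The same letters occurred in the second Prlr window at -110 to -102. None of the motifs searched was found in all 3 genes shown. Any part of these matches in the receptor levels was not tested. No window of the 3 genes held TGACGTCA (the cyclic AMP response element, in 1.55% of all windows), the full palindromic estrogen response element (0.0639%) or TATAAA (12.4%). The motifs do not overlap each other in these windows. Of the 8 receptors, 7 have windows in the table, 13 in all; Adrb3 is not among them.

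Gcgr was the most abundant of the receptors per exon length and differed little. Gcgr (chromosome 11, 120529185 to 120538989) had 365, 374 and 350 CPM in IRE1fl and 325, 313 and 299 CPM in IRE1PKO, or 363 ± 12.3 against 312 ± 13.0. The groups did not overlap, since the coefficients of variation were only 3.40% and 4.18%. The log2 fold change was -0.22 (SE 0.09), with a 95% interval of -0.41 to -0.02 before adjustment, and it did not pass. Other receptors of the glucagon family were much lower: Vipr1 had 6.09 ± 0.586 and 7.44 ± 1.17 RPKM beside 138 ± 4.70 and 119 ± 4.98 for Gcgr. Glp1r had 0 counts in IRE1fl and at most 0.0177 RPKM in IRE1PKO.

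Of 40 tested genes of glucagon coupling and cyclic AMP response, 2 rose, 3 fell and 35 did not pass, with a median log2 fold change of -0.0098. Adcy6, an adenylyl cyclase of hepatocytes, had 49.5, 60.8 and 46.4 CPM in IRE1fl and 89.8, 118 and 85.8 CPM in IRE1PKO (log2 fold change 0.91, SE 0.14, edgeR adjusted p = 0.00451). Pde4d, a phosphodiesterase that degrades cyclic AMP, rose from 5.55 ± 0.857 to 11.1 ± 0.851 CPM (edgeR adjusted p = 0.00298). The target genes that passed were lower. Tat, tyrosine aminotransferase, had 836, 977 and 888 CPM in IRE1fl and 367, 557 and 334 CPM in IRE1PKO, and its log2 value fell by 1.10 (SE 0.18, edgeR adjusted p = 0.00657). G6pc, the glucose-6-phosphatase gene, fell by 0.90 (SE 0.17, edgeR adjusted p = 0.0114), a call lost without IRE1PKO 02 (adjusted p = 0.0528 in edgeR). Pck1, a gluconeogenic enzyme gene chosen after its values were seen, fell by 0.60 (SE 0.14, edgeR adjusted p = 0.0251). Insulin and glucocorticoids also act on these target genes, and Tat is among the hepatocyte markers. The kinase subunits Prkaca, Prkacb and Prkar1a did not pass, and Gnas, the Gs alpha gene, had 368 to 415 CPM against 439 to 509 CPM (edgeR adjusted p = 0.188).

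Prlr overlapped between the genotypes and Lepr was the only member higher in IRE1PKO. Prlr (chromosome 15, 10177238 to 10349190) had 109.7, 86.9 and 101 CPM in IRE1fl and 99.8, 92.6 and 85.8 CPM in IRE1PKO. The groups overlapped, with a log2 fold change of -0.10 (SE 0.10) and a 95% interval of -0.33 to 0.13. A protein-coding gene model of the same strand, Gm21973, overlaps exons of Prlr in GENCODE. It is absent from the count table under that symbol, and how such reads were counted is not stated. Lepr (chromosome 4, 101717137 to 101815352) had 2.71, 2.21 and 2.88 CPM in IRE1fl and 3.52, 4.02 and 3.52 CPM in IRE1PKO, from 78 to 107 and 137 to 148 counts per library. Every IRE1PKO library was above every IRE1fl library, but the log2 fold change of 0.50 (SE 0.21) did not pass. The counts do not separate the long signalling form of the leptin receptor from its short and soluble forms.

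None of 22 tested genes of prolactin and leptin signalling passed in edgeR, and their median log2 fold change was -0.0070. At an unadjusted p under 0.05, 1 was higher and 1 lower, as in DESeq2, and limma-voom called 0. The higher was Jak2, the kinase bound by both receptors, with 17.2 to 19.3 CPM in IRE1fl and 22.2 to 23.8 in IRE1PKO (edgeR adjusted p = 0.0522). The lower was Stat5b, a transcription factor they activate, which had 81.8 to 91.2 CPM against 68.8 to 75.5 (edgeR adjusted p = 0.0645). Both were chosen after their values were seen. The feedback genes Socs2 and Cish, targets of STAT5, had overlapping groups with wide spread, Socs2 at 12.8 to 20.7 CPM and 7.08 to 25.5 CPM. Ptprf, a receptor phosphatase and the most abundant of the list, had 221 to 270 CPM against 218 to 252 CPM, with a log2 fold change of -0.0081.

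Of 47 other tested receptors of liver hormones and local signals, 5 rose, 4 fell and 38 did not pass, with a median log2 fold change of 0.042. Avpr1a, the vasopressin receptor of hepatocytes, which like Adra1b couples to Gq, had 12.8, 20.6 and 20.4 CPM in IRE1fl and 5.67, 6.38 and 4.50 CPM in IRE1PKO. Its log2 value fell by 1.70 (SE 0.21, edgeR adjusted p = 0.00129), and no IRE1PKO library reached the lowest of IRE1fl. Pdgfrb, a receptor of stellate cells, rose by 0.83 (SE 0.14, edgeR adjusted p = 0.00399), S1pr2, a sphingosine-1-phosphate receptor, by 0.88 (SE 0.15, edgeR adjusted p = 0.00519), and Rarb, a retinoic acid receptor, by 1.17 (SE 0.23, edgeR adjusted p = 0.00853). Chosen after their values were seen, Ednrb (endothelin receptor B) and Ptgfr (prostaglandin F receptor) also rose, by 1.04 and 2.14. Fgfr1 (fibroblast growth factor receptor 1), Acvr2b (an activin receptor) and S1pr1 fell by 1.21, 1.06 and 0.36. The insulin receptor gene Insr had 178 to 206 CPM against 170 to 194 CPM, and the glucocorticoid receptor gene Nr3c1 91.9 to 104 against 87.9 to 106, both overlapping. Over all 192 tested genes of the 8 lists, 16 rose and 11 fell, beside 5.68% higher and 3.86% lower among all tested genes. With library totals as the only scaling 23 rose and 10 fell.

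Compared per exon length, the order of the receptors changed between the genotypes at Egfr and Adra1b. In IRE1fl it ran from Gcgr (138 RPKM) through Egfr (40.0), Lifr (28.3), Adra1b (24.5), Prlr (6.47), Adrb3 (6.10) and Esr1 (1.88) to Lepr (0.369). Egfr and Lifr, Lifr and Adra1b, and Prlr and Adrb3 each overlapped as neighbours in that order. In IRE1PKO it ran from Gcgr (119) through Adra1b (22.7), Lifr (12.2), Egfr (10.3), Prlr (6.04), Adrb3 (2.34) and Esr1 (1.14) to Lepr (0.523). There Lifr and Egfr overlapped, as did Egfr and Prlr. The order depends on the length used, the union of all annotated exons, such as 15339 bases for Prlr and 3376 for Adrb3. By CPM the IRE1fl means were 99.3 for Prlr, 82.8 for Adra1b and 20.6 for Adrb3. Among 13798 tested genes with an annotated length, Egfr stood at the 92.2 percentile in IRE1fl and the 76.6 percentile in IRE1PKO, Adrb3 at 66.5 and 44.8, and Gcgr at 97.5 and 97.4.

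Some markers of other liver cells also differed between the genotypes, unevenly by cell type. Among all tested genes 5.68% were called higher in IRE1PKO and 3.86% lower. Of 13 stellate cell markers 7 rose and none fell, and their sum was 416 to 507 CPM in IRE1fl and 625 to 691 in IRE1PKO. Of 12 endothelial markers 4 rose and none fell, with sums of 313 to 348 and 361 to 498 CPM. Of 13 macrophage markers 2 rose and 1 fell, with overlapping sums of 437 to 590 and 532 to 725 CPM. Cholangiocyte markers summed to 33.8 to 35.2 and 24.5 to 26.2 CPM, with 1 of 7 lower, and lymphocyte markers to 12.4 to 16.5 and 6.62 to 9.04 CPM, with 2 of 10 lower. Of the 12 hepatocyte markers 4 fell and none rose, with a median log2 fold change of -0.27. IRE1PKO 03, where Egfr and Lifr were highest in its group, had the lowest hepatocyte sum of the 6 libraries. Most of that sum was Alb, at 57900.5 of 102938 CPM, and single markers differed. Tat and Ahsg were also lowest in IRE1PKO 03, whereas Cps1 was lowest in IRE1PKO 01 and Hnf4a in IRE1PKO 02. The part of cell composition in the receptor values was not tested.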

How the data were processed

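Poly(A) RNA of 6 mouse liver libraries was sequenced. The authors deposited raw counts per gene symbol, 1 column per library; the submitters' processing notes name mm10. Aligner, counting program, strand setting and annotation are not stated in the labels or the file header. Columns were matched to samples by genotype and replicate number. Counts of 35976 genes were filtered with filterByExpr, normalised with edgeR's TMM factors and tested with its robust quasi-likelihood method (edgeR 4.0.16, R 4.3.3; two-sided, Benjamini-Hochberg over 14954 genes, threshold 0.05). CPM uses TMM-scaled totals, and log2 CPM a prior count of 2. RPKM divides CPM by the union of GENCODE vM21 exons on the same assembly, which may not be the annotation used for counting. Gene coordinates and promoter windows are from RefSeq on GRCm38.p6.

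The members, the 8 pathway lists and the 7 marker lists were chosen with earlier results of these data known. Of 305 listed symbols, 2 were found under another name and 0 were missing. Named genes were the members and, per pathway list, up to 4 called genes with the smallest p, or the most abundant tested gene where none was called. The gene most like each member had the highest Pearson's r among other genes with a mean of at least 10 CPM. Exact permutation of 3 against 3 libraries cannot go below 0.1. Libraries of a group were compared for copies and differed, with a chi-square of 30.7 to 68.5 per gene. The fit was tested on simulated data. It recovered 26.9% of genes changed 1.5 times, 59.7% of those changed 2 times and 83.3% of those changed 4 times. Of its 122 calls there, 7.38% were false. Genes that did not pass may therefore still differ. Some genes of these families are not reported here. Alternatives were DESeq2 size factors, library totals, no filter, a mean of 1 CPM, DESeq2 1.42.0, limma-voom 3.58.1, a threshold of 0.1, a replicate block, and dropping each library.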

Additional observations from a re-analysis of the deposited data

How the results depend on the processing

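The Adrb3 call held in every alternative run. Members lower were 1 in the reported fit, 4 in DESeq2, 3 in limma-voom, 3 at a threshold of 0.1 and 1 to 4 with single libraries left out (2 without IRE1fl 01, 4 without IRE1PKO 03); 0 were higher in any setting, and 1 at an unadjusted p under 0.05. Adra1b, at -0.11, ran from -0.19 to 0.023 over the libraries left out, above 0 without IRE1fl 02. Pathway genes, 16 higher and 11 lower, were 25 and 19 in DESeq2, 26 and 18 at a threshold of 0.1, and 10 to 19 and 6 to 13 with single libraries left out, lowest without IRE1PKO 02. All genes, 849 higher and 577 lower, were 1182 and 890 in DESeq2, 1299 and 992 at a threshold of 0.1, and 398 to 868 and 255 to 616 with single libraries left out, lowest without IRE1PKO 01. Leaving out IRE1fl 02, IRE1fl 03 or IRE1PKO 02 also lowered both counts by over 1.5 times. With library totals as the only scaling they were 1148 and 415, so that 73.4% of calls were higher in place of 59.5% (pathway genes 69.7% in place of 59.3%), and the median of all genes was 0.069. Ptprf, at -0.0081, turned to 0.059 with library totals, and ran from -0.064 to 0.080 over the libraries left out, above 0 without IRE1fl 01 (0.080) or IRE1PKO 03 (0.054). The TMM factors, which scaling by library totals leaves out, were 0.997, 0.986 and 0.945 in IRE1fl and 1.003, 1.024 and 1.049 in IRE1PKO. The cause of these shifts was not tested. Deviations of same-numbered libraries from their group means correlated with r of 0.071, -0.022 and 0.10. Libraries of unlike number gave -0.107 to 0.035, so these values do not decide whether same-numbered libraries pair. With the replicate block members lower were 4, pathway genes 22 higher and 18 lower, and all genes 1051 and 814; Esr1, Egfr and Lifr passed there, and G6pc and Cyp7b1 did not (edgeR adjusted p of 0.0690 and 0.0667). Counting error weighs most on genes of few counts, such as Nrg1, Hbegf, Egf, Adrb1 and, among the members, Lepr.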
